A study of Rattus norvegicus with 9 samples.

Results

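The genes described are the RT1 genes, the major histocompatibility complex of the rat, together with the machinery that loads peptides onto RT1 molecules. They were chosen by name: every gene whose symbol starts with RT1-, and B2m, Tap1, Tap2, Tapbp, Psmb8, Psmb9, Psmb10, Nlrc5, Ciita and Cd74. The rule found 47 of the 19367 genes in the expression table, of which 27 were class I RT1 genes, 10 class II RT1 genes, 7 genes of class I peptide supply and loading, 2 transactivators and 1 the invariant chain. Of the 47, 42 lie on rat chromosome 20 in the GRCr8 assembly, while B2m lies on chromosome 3, Ciita on 10, Cd74 on 18, and Nlrc5 and Psmb10 on 19.

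RNA from whole kidney was sequenced in 9 libraries, 3 from Wistar-Kyoto rats (WKY, a normotensive inbred strain), 3 from untreated spontaneously hypertensive rats (SHR, an inbred strain that develops high blood pressure) and 3 from SHR given dapagliflozin, an inhibitor of the glucose transporter SGLT2, at 10 mg/kg per day. All rats entered at 3 months of age and were kept for 8 weeks, and the untreated groups received distilled water by mouth per the protocol (a treatment field in the labels reads saline). The strain field reads Wistar-Kyoto for all 9 libraries, so the groups follow the sample titles. Every rat given the drug was SHR, so a drug effect in WKY was not measured. The labels do not tie a library to one animal, so a p-value reflects only how much these libraries vary, which may be technical.

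Class I molecules sit on nearly all nucleated cells and show peptides from inside the cell to CD8 T cells. Their heavy chain pairs with beta-2-microglobulin (B2m), and peptides cut by the proteasome are pumped into the endoplasmic reticulum by the transporter Tap1/Tap2 and loaded with the help of tapasin (Tapbp). Class II molecules are made mostly by dendritic cells, macrophages and B cells, are guided by the invariant chain (Cd74) to the endosome, and show peptides from outside the cell to CD4 T cells. In the rat, the number and the sequences of class I genes differ between RT1 haplotypes, and many class I genes are close copies of each other.

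Values are FPKM, a read count corrected for transcript length and for the mapped reads of the library. The test, limma, was run on the 13127 genes that reached 1 FPKM in 3 or more of the 9 libraries, using log2(FPKM + 1), and a gene was called at a Benjamini-Hochberg adjusted p under 0.05 over all of them. Log2 differences in the text use that scale, on which a change in a gene of low level looks smaller than it is. Of the 47 genes, 37 passed this filter. The 9 libraries carried kidney markers throughout, with Umod, the uromodulin of the thick limb, at 1332 to 4616 FPKM. FPKM sums lay between 563643 and 589838, and read totals are unknown. Single-end 50-base reads from near-identical class I copies can be exchanged between them, so the level of any single copy is uncertain. The deposited values were made with the build Rnor_6.0, which like GRCr8 is of the Brown Norway strain, and whether reads of SHR and WKY copies align to it equally well was not tested.

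The first comparison, of untreated SHR with WKY kidney, asked how these genes differ between the hypertensive strain and its normotensive control. Class I RT1 genes differed in both directions, some with far higher FPKM in SHR and some with far lower. Others stood near their WKY level, such as RT1-T24-4 and RT1-T24-3 at 1.10 and 0.921 times. RT1-A1, RT1-CE2 and RT1-CE4 were 4.52, 11.5 and 4.75 times as high in SHR by their mean FPKM, while RT1-CE10 and RT1-N2 were at 0.151 and 0.0807 times their WKY level. Of the 37 genes tested, 10 were called (27.0%), 4 higher and 6 lower, where 2.96% of all genes tested were called, 1.84% higher and 1.12% lower. Of 19 class I genes tested, 9 were called (47.4%), 3 higher and 6 lower. Over these 19 the median log2 difference was -0.74, against 0.07 over all genes, and the median size of the difference without its sign was 0.82 against 0.15. Groups did not overlap for 21 of the 37 genes (56.8%) and for 28.4% of all genes.

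RT1-A1 (gene ID 24973), a classical class I gene of the RT1-A region, was listed at 75.7, 93.4 and 89.1 FPKM in libraries 1 to 3 of WKY, at 415, 368 and 385 in untreated SHR, and at 371, 443 and 470 in treated SHR. Every SHR library, treated or not, was above every WKY library. The log2 difference between untreated SHR and WKY was 2.17 (SE 0.12, adjusted p = 2.41e-05 in limma). RT1-A2 (24974), its neighbour and the other classical class I gene listed, went the other way at 115, 126 and 123 FPKM among WKY libraries and 81.5, 64.7 and 66.9 in untreated SHR. Its log2 difference was -0.77 (SE 0.12, adjusted p = 0.0112), and treated SHR lay at 71.6, 85.3 and 94.2 FPKM. Both genes were thus far apart in their own ratio: RT1-A1 was 0.656 to 0.740 times RT1-A2 in the WKY libraries and 4.99 to 5.75 times in the 6 SHR libraries.

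**Figure D1:**
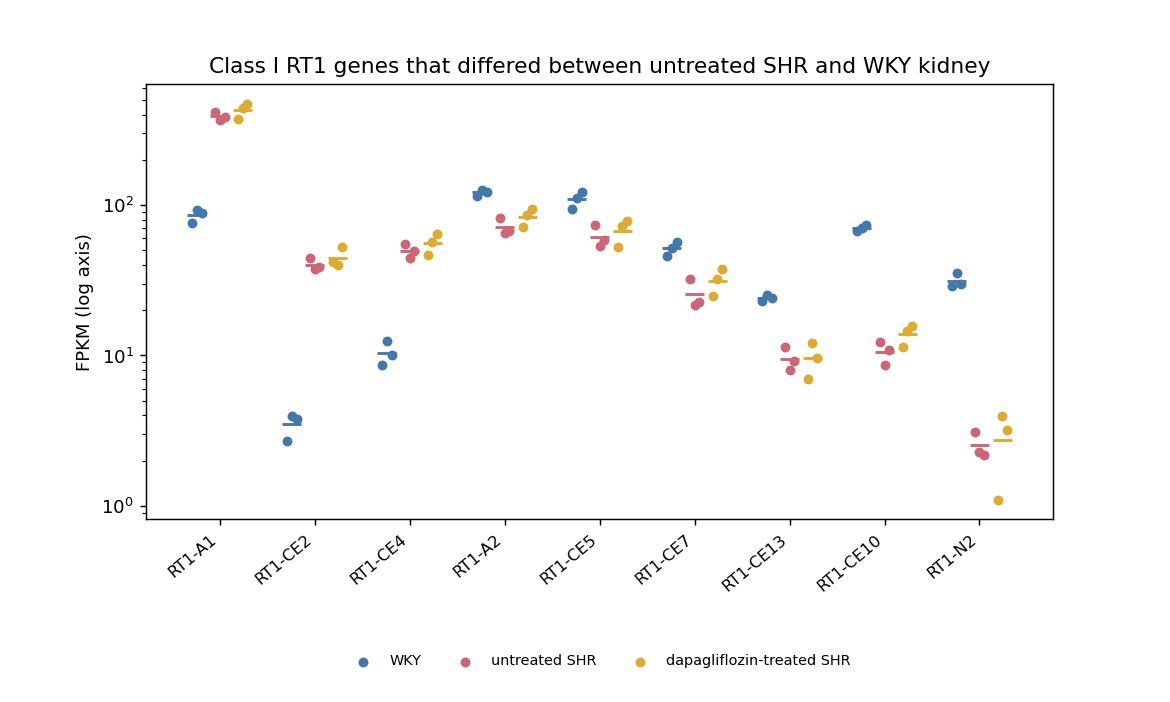
FPKM on a log axis of the 9 class I genes called between untreated SHR and WKY; each point is a library, each bar the mean of 3, in blue for WKY, red for untreated SHR and yellow for treated SHR. RT1-A1, RT1-CE2 and RT1-CE4 were higher and the other 6 lower in every SHR library than in every WKY library, and treated and untreated SHR overlapped for all 9.

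Class I genes of the CE cluster encode non-classical class I chains, and 10 FPKM or more was reached by all 7 that the table holds. RT1-CE2 (414779) was at 2.72, 3.94 and 3.79 FPKM among WKY libraries and at 44.4, 37.6 and 38.7 in untreated SHR, with a log2 difference of 3.21 (SE 0.14, adjusted p = 6.63e-06). RT1-CE4 (414783) was at 8.70, 12.5 and 10.1 FPKM among WKY libraries and at 55.3, 44.2 and 49.5 in untreated SHR, a log2 difference of 2.15 (SE 0.15, adjusted p = 0.000129). Both were high in all 6 SHR libraries, with treated SHR at 41.6, 40.2 and 52.7 FPKM for RT1-CE2 and at 46.4, 57.1 and 64.3 for RT1-CE4. In contrast, RT1-CE10 (414792) was at 67.5, 69.9 and 73.2 FPKM among WKY libraries and at 12.3, 8.59 and 10.8 in untreated SHR. Its log2 difference was -2.63 (SE 0.14, adjusted p = 2.41e-05), and treated SHR lay at 11.4, 14.6 and 15.8 FPKM, far below all WKY libraries.

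The other members of the CE cluster had lower levels in SHR, by less. RT1-CE13 (414790) measured 9.54 ± 1.74 FPKM in untreated SHR against 24.2 ± 1.10 in WKY (mean ± SD, n = 3 each), RT1-CE5 (309607) 61.8 ± 10.3 against 110 ± 14.4, and RT1-CE7 (368153) 25.5 ± 5.88 against 51.5 ± 5.28. These 3 were called, at log2 differences of -1.27, -0.82 and -1.0 (adjusted p = 0.00709, 0.0448 and 0.0222 in limma). RT1-CE3 (414793) measured 22.1 ± 5.01 against 37.3 ± 6.32 FPKM and was not called (adjusted p = 0.117), although its groups did not overlap. In GRCr8 the locus of RT1-CE5 overlaps RT1-CE4 and RT1-CE7, and RT1-CE7 lies inside RT1-CE4, so reads of these 3 may not be told apart. RT1-CE4 rose while RT1-CE5 and RT1-CE7 fell. The calls of RT1-CE5, RT1-CE7 and RT1-A2 were lost when any 1 of several libraries was left out (WKY 3, SHR 2 or SHR 3 for all 3 genes; also WKY 1 or WKY 2 for RT1-CE5 and RT1-CE7, and SHR 1 or treated 2 for RT1-CE5). RT1-CE5 lost its call in 11 of the 18 alternative settings, with no filter on low values, the strictest filter and no variance trend among them.

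The class I genes outside the RT1-A region and the CE cluster carry the names RT1-N, RT1-S, RT1-O, RT1-T24 and RT1-M. RT1-N2 (360323), a non-classical class I gene, was at 28.9, 35.2 and 30.0 FPKM among WKY libraries, at 3.12, 2.28 and 2.19 in untreated SHR, and with the drug at 1.10, 3.97 and 3.18. That was a log2 difference of -3.20 between untreated SHR and WKY (SE 0.28, adjusted p = 0.000494), and all 6 SHR libraries were far below WKY. RT1-N3 measured 3.82 ± 1.19 against 7.80 ± 1.99 FPKM and was not called (adjusted p = 0.160). RT1-T24-4 (27.3 ± 6.91 against 24.9 ± 6.98 FPKM), RT1-T24-3 (12.1 ± 3.61 against 13.1 ± 5.55) and RT1-S3 (12.4 ± 3.68 against 18.1 ± 2.35), whose mouse counterpart presents class I leader peptides to natural killer cells, overlapped between strains. RT1-M3-1, the counterpart of a mouse gene that presents N-formylated bacterial peptides, measured 5.41 ± 1.46 against 4.29 ± 0.475 FPKM. RT1-T24-1, RT1-S2, RT1-O1 and RT1-M6-2, all with means under 10 FPKM, were not called either. RT1-S2 and RT1-O1, and RT1-T24-4 and RT1-T24-3, have overlapping loci in GRCr8.

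Together the class I genes summed to 553, 660 and 663 FPKM among WKY libraries, 846, 683 and 723 in untreated SHR, and with the drug 703, 869 and 944. An exchange of reads between class I copies leaves such a sum nearly the same, apart from differences in transcript length. The sum was higher in all 6 SHR libraries than in any WKY library, but without RT1-A1 it was 478, 567 and 574 FPKM among WKY libraries and 431, 315 and 338 in untreated SHR, so its direction turned on that gene. RT1-A1 made up 13.4% to 14.2% of the class I sum in WKY and 49.1% to 53.9% in untreated SHR. RT1-A2 went from 18.6% to 20.8% of the sum in WKY to 9.26% to 9.63% in untreated SHR, and RT1-CE10 from 10.6% to 12.2% to 1.26% to 1.5%. In treated SHR, RT1-A1 made up 49.8% to 52.9%. Shares of some weaker genes varied more within a group, such as RT1-N2 at 0.157% to 0.457% in treated SHR and RT1-T24-3 at 1.22% to 2.57% in WKY. These sums and shares were added after the values were seen and were not tested.

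**Figure D2:**
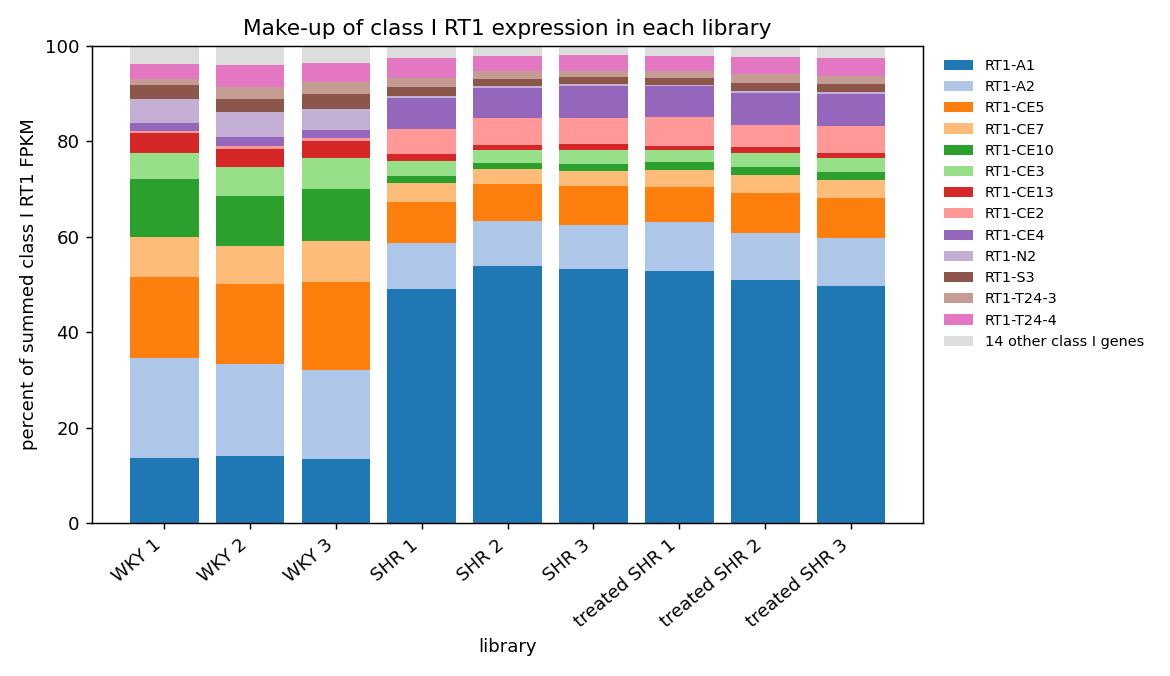
Share of the summed class I FPKM held by each class I gene in each library, in percent; bars are libraries and colours genes, with the 14 genes of lowest level in grey. RT1-A1 takes 13.4% to 14.2% of the bar in the 3 WKY libraries and 49.1% to 53.9% in the 6 SHR libraries, whose bars look alike with and without the drug.

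Promoter sequences are shown for RT1-A1 and RT1-CE4, which rose, and for RT1-CE10, which fell although its window resembles that of RT1-CE4. The windows run from 250 bases before to 50 after the start and come from RefSeq on GRCr8, whose coordinates are not those of the build behind the expression values; 40 of the 47 genes had one. Capitals mark GGGATTCC, an NF-kB type motif known from the class I enhancer A, and CTGATTGG, the core of the Y box on which the transactivators act, on either strand (CCAATCAG on the other).
RT1-A1 (chr20:4906959-4907258, + strand): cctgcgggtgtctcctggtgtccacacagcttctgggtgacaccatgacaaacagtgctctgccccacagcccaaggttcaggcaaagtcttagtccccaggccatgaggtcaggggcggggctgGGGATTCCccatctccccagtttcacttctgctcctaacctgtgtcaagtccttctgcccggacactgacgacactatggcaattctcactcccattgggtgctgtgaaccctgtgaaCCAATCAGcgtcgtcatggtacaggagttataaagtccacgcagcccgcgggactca
RT1-CE4 (chr20:3509107-3509406, - strand): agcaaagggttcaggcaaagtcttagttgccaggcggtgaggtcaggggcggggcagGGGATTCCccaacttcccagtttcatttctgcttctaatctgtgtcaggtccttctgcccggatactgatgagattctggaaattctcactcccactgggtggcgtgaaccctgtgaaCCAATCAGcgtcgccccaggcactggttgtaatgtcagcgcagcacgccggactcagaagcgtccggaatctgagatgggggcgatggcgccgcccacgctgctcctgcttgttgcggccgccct
RT1-CE10 (chr20:3384930-3385229, - strand): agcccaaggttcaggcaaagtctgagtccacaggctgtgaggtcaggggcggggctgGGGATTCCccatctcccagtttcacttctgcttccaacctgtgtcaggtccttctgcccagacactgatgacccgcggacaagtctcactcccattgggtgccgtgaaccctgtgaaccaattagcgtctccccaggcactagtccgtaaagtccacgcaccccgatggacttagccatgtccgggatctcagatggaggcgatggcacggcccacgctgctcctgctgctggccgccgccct

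GGGATTCC stood in 7 of 23 class I windows (RT1-A1, RT1-A2, RT1-CE3, RT1-CE4, RT1-CE10, RT1-CE13 and RT1-M5) and in 1.23% of all 33469 windows. CTGATTGG stood in 7 of the 23, RT1-A1, RT1-A2, RT1-CE4 and RT1-CE5 among them, against 3.50% of all windows. RT1-CE4 and RT1-CE10, of which the first was higher and the second lower in SHR, had 83.7% identical bases in a global alignment of their windows, and the NF-kB type motif began 193 bases before the start in both. RT1-A1 and RT1-A2, also called in opposite directions, had 78.7% identical bases. RT1-CE2 and RT1-N2 held none of the motifs searched, which says only that those letters are not in these windows. The windows are of the reference strain, and the bases that SHR and WKY carry were not analysed here.

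None of the 7 genes of class I peptide supply and loading passed the test between the strains: 0 were called in limma, and 2 (Tap1 and Tapbp) had an unadjusted p under 0.05, as did 19.5% of all genes. B2m (24223), the light chain shared by class I molecules, was at 382, 445 and 466 FPKM among WKY libraries, 419, 330 and 332 in untreated SHR, and with the drug 341, 369 and 373. The groups of WKY and untreated SHR overlapped (log2 difference -0.26, SE 0.12, adjusted p = 0.278). Tap1, a subunit of the peptide transporter, measured 5.38 ± 0.595 FPKM in untreated SHR against 8.34 ± 1.83 in WKY, and its partner Tap2 11.2 ± 1.61 against 12.8 ± 2.10 (adjusted p = 0.235 and 0.629). Tapbp, the tapasin that bridges transporter and class I chain, measured 37.1 ± 1.97 against 27.9 ± 4.88 FPKM (adjusted p = 0.180). Groups did not overlap for Tap1 and Tapbp, 2 of the 7 (28.6%), a share near the 28.4% of all genes. The catalytic subunits of the immunoproteasome were also not called, with Psmb8 at 12.3 ± 2.86 against 9.41 ± 2.32 FPKM, Psmb9 at 10.7 ± 3.40 against 12.1 ± 3.41 and Psmb10 at 9.71 ± 1.48 against 11 ± 1.91. Summed class I FPKM was 1.42 to 1.48 times B2m in WKY and 2.02 to 2.18 times in untreated SHR, but without RT1-A1 it was 1.23 to 1.27 times in WKY and 0.955 to 1.03 times in untreated SHR, so the direction of this ratio also turned on RT1-A1. Both ratios were formed after the values were seen and were not tested.

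The promoter of B2m is shown as an example of the motif that most of these genes have. Its capitals mark GAAANNGAA, the core of the interferon-stimulated response element, with N for any base and both strands searched.
B2m (chr3:129549080-129549379, + strand): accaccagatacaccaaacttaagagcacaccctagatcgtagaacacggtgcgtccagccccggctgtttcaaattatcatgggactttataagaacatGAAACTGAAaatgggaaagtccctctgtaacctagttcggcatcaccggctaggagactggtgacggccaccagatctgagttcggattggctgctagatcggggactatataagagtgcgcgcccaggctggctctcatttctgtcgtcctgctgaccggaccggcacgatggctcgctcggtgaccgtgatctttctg
This motif stood in 6 of 7 windows (all but Psmb9), in 3 of 23 class I windows, in 0 of 9 class II windows and in 9.71% of all windows. Tap1 and Psmb9 lie on opposite strands with overlapping windows (chr20:4668494-4668793 and chr20:4668750-4669049). The Tap1 match lies between their starts but outside the window of Psmb9. The GAS motif TTCNNNGAA, through which interferon gamma acts, stood in the windows of Psmb8 and RT1-M3-1 and in 8.87% of all windows.

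**Figure D3:**
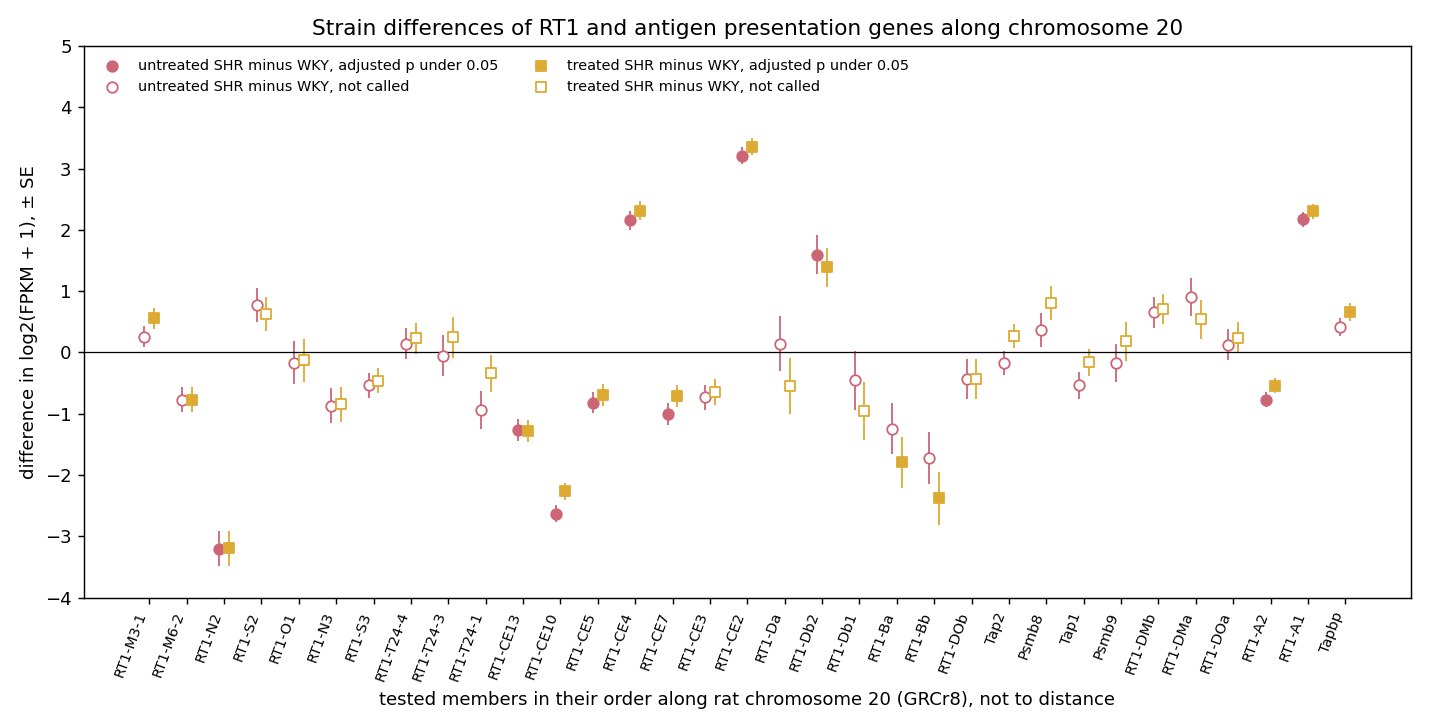
Difference in log2(FPKM + 1) from WKY of untreated SHR (red circles) and treated SHR (yellow squares), with SE, for the tested genes on chromosome 20 in their order there; filled symbols were called. Called genes of opposite sign stand next to each other at RT1-A2 and RT1-A1 and within the CE cluster. Red and yellow symbols lie close together for the 9 class I genes called between untreated SHR and WKY. They also do so for uncalled class I genes such as RT1-N3 (-0.87 and -0.85) and RT1-S3 (-0.54 and -0.46). Some other genes have them further apart, such as RT1-Da at 0.14 and -0.55.

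Class II genes had differences of both signs. Of 9 tested, 1 was called between untreated SHR and WKY (11.1%), where 2.96% of all genes were called. That was RT1-Db2 (24981), which encodes a further beta chain for the RT1-D molecule. It was at 0.37, 0.46 and 0.68 FPKM among WKY libraries, 6.43, 3.18 and 1.99 in untreated SHR, and with the drug 2.14, 4.24 and 2.64. WKY libraries were all below 1 FPKM, so the gene was tested only because of its level in SHR. Its log2 difference was 1.6 (SE 0.32, adjusted p = 0.0329), a call lost without WKY 1, WKY 2, WKY 3, SHR 1 or SHR 2, and without the filter on low values. RT1-Ba (309621) and RT1-Bb (309622), the alpha and beta chains of the RT1-B molecule, measured 28.8 ± 14.8 against 66.5 ± 19.9 FPKM and 16.0 ± 7.73 against 52.9 ± 13. Neither was called (log2 differences -1.24 and -1.72, adjusted p = 0.163 and 0.0748), but the fit to the 6 libraries of these groups alone called RT1-Bb. The RT1-D chains RT1-Da (63.0 ± 29.9 against 56.1 ± 21.0 FPKM) and RT1-Db1 (30.6 ± 16.8 against 40.9 ± 15.6) overlapped between strains.

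Cd74 and the RT1-DM chains, which guide and edit class II peptides, had higher means in untreated SHR than in WKY. Cd74 (25599), the invariant chain, was at 186, 286 and 302 FPKM among WKY libraries, 619, 413 and 331 in untreated SHR, and with the drug 153, 498 and 208. The lowest untreated SHR library was above the highest WKY library, yet the spread within SHR was wide and the difference was not called (log2 difference 0.79, SE 0.42, adjusted p = 0.326). RT1-DMa and RT1-DMb, the chains of the editor that exchanges the invariant chain fragment for peptide, measured 22.0 ± 4.60 against 11.5 ± 3.42 FPKM and 45.7 ± 5.78 against 29.2 ± 7.66, with no overlap between groups and no call (adjusted p = 0.172 and 0.207). Groups did not overlap for 4 of the 9 class II genes tested (44.4%) and for 28.4% of all genes. RT1-DOa and RT1-DOb, which modulate that editor, stood near 1 FPKM, at 1.33 ± 0.765 against 1.09 ± 0.474 and 0.700 ± 0.796 against 1.16 ± 0.346. Ciita, the master transactivator of class II genes, measured 1.18 ± 0.176 against 0.760 ± 0.276 FPKM (adjusted p = 0.368).

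**Figure D4:**
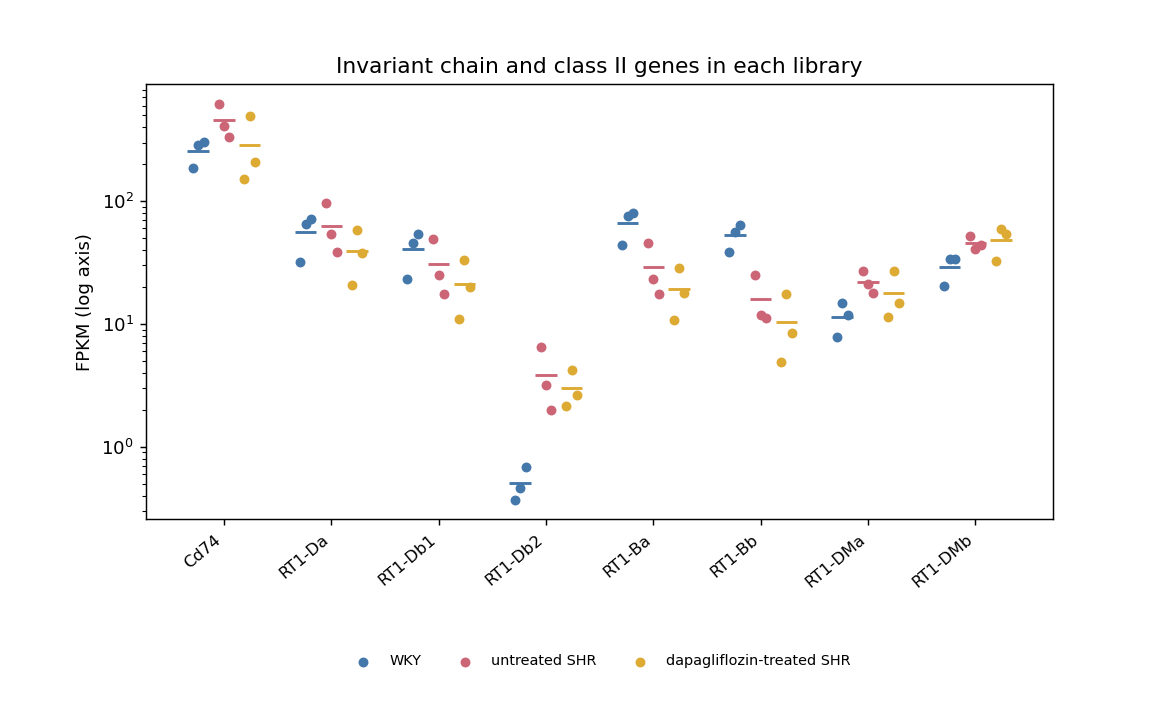
FPKM on a log axis of Cd74 and 7 class II genes, one point per library and bars for the means of 3. Library-to-library spread is wide within every group, and the genes share it: treated library 1 is lowest of its group for RT1-Da, RT1-Db1, RT1-Ba and RT1-Bb, and SHR library 1 is highest of its group.

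Markers of leukocytes also varied between libraries of a group. Pan-leukocyte markers (Ptprc, Cd53, Laptm5 and Coro1a) summed to 10.9, 15.5 and 24.9 FPKM among WKY libraries, 28, 13.8 and 10.8 in untreated SHR, and with the drug 8.49, 20.3 and 18.0. Markers of macrophages and dendritic cells, all 14 of the list found in the table, summed to 25.5, 53.3 and 63.4, to 79.0, 44.9 and 29.5, and to 22.5, 61.1 and 41.2 FPKM. Within WKY and within untreated SHR, Cd74, RT1-Da, RT1-Db1, RT1-Db2, RT1-Ba and RT1-Bb followed the same order of libraries as both sums. Of those groups, RT1-DMa and RT1-DOa did so in untreated SHR but not WKY, RT1-DOb in WKY but not untreated SHR, and RT1-DMb in neither. Within treated SHR, Cd74 and all of these class II genes but RT1-DOb followed the order of both sums. Of these markers 0 of 4 and 0 of 8 tested were called by limma in any of the 3 comparisons. Among them was 1 unadjusted p under 0.05, in treated SHR against WKY, where 40.2% of all genes had one. Of the T and NK cell markers 0 of 3 tested were called, with 0 unadjusted p under 0.05, and they summed to 5.95 to 17.9 FPKM over the 9 libraries. The B cell gene Cd79a was called higher in treated SHR than in WKY (log2 difference 0.80, adjusted p = 0.0116), where 22.9% of all genes were called. It was at 0.14, 0.42 and 0.33 FPKM among WKY libraries and at 1.33, 1.25 and 1.18 in treated SHR. The gene thus passed the filter only because of its level in treated SHR. Cd163 was at no more than 0.03 FPKM and Xcr1 at no more than 0.09, and the B cell markers Ms4a1 and Pax5 at no more than 0.28 and 0.38. The part of leukocyte number in the class II differences was not tested, and fewer cells of a type and less RNA per cell cannot be told apart in whole tissue.

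Set against Cd74 of the same library, RT1-Ba, which overlapped between the strains by FPKM, and RT1-Bb were both well apart. RT1-Ba stood at 23.4%, 26.7% and 26.3% of Cd74 FPKM in WKY and at 7.37%, 5.67% and 5.28% in untreated SHR. RT1-Bb stood at 20.8%, 19.5% and 21.3% in WKY and at 4.03%, 2.88% and 3.38% in untreated SHR. RT1-Da (17.2% to 23.6% in WKY, 11.7% to 15.6% in untreated SHR) and RT1-Db1 (12.6% to 17.8% against 5.29% to 8.02%) were also lower relative to Cd74, by less. RT1-Db2 was higher, at 0.161% to 0.225% against 0.601% to 1.04%, and RT1-DMa (3.91% to 5.13% against 4.37% to 5.42%) and RT1-DMb (10.9% to 11.8% against 8.44% to 13.2%) overlapped. Between the 2 kinds of class II molecule, RT1-Ba was 1.12 to 1.36 times RT1-Da in WKY, 0.433 to 0.473 times in untreated SHR and 0.469 to 0.519 times in treated SHR. These ratios were formed after the values were seen and carry no test; a ratio shows unequal levels and not which gene changed.

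**Figure D5:**
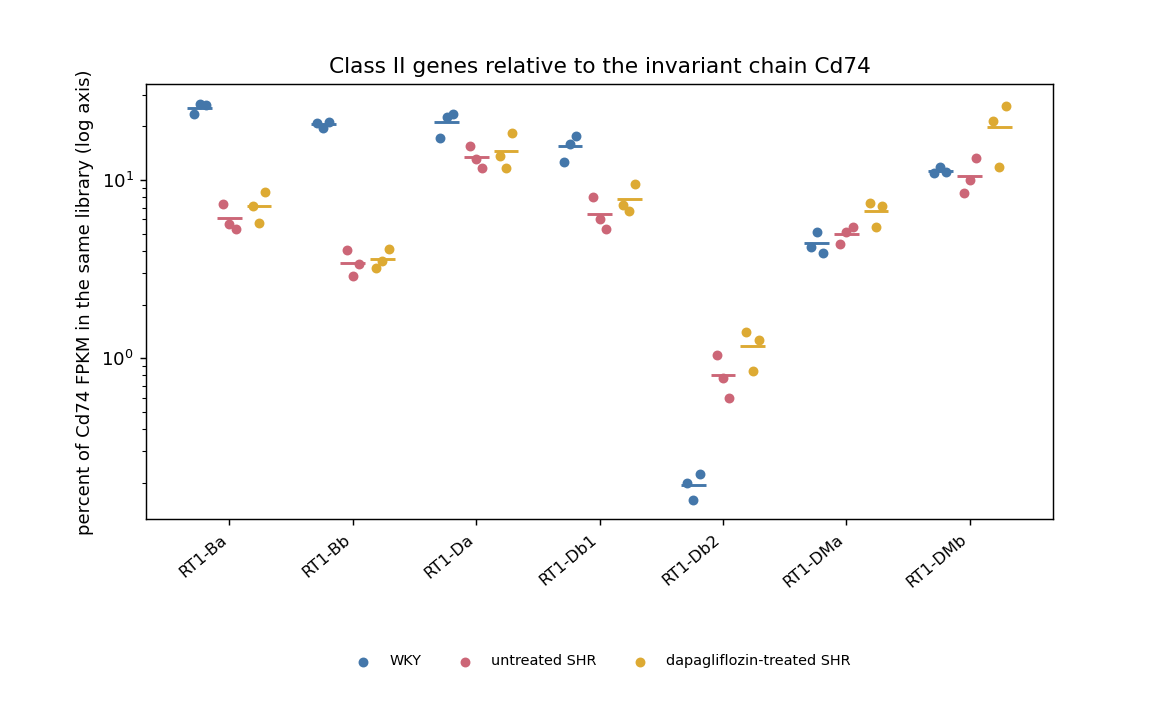
Class II genes as percent of Cd74 FPKM in the same library, on a log axis; points are libraries and bars means of 3. RT1-Ba and RT1-Bb lie at 19.5% to 26.7% in WKY and at 2.88% to 8.59% in the 6 SHR libraries, while RT1-Db2 is below 0.23% in WKY and above 0.60% in SHR.

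Class II promoters are shown for both chains of RT1-B and for RT1-Da and RT1-Db2, genes that stood much lower, somewhat lower and higher in SHR relative to Cd74. Capitals mark CTGATTGG, the Y box core, and in RT1-Ba also TGACGTCA, an X2 box like motif.
RT1-Ba (chr20:4576807-4577106, + strand): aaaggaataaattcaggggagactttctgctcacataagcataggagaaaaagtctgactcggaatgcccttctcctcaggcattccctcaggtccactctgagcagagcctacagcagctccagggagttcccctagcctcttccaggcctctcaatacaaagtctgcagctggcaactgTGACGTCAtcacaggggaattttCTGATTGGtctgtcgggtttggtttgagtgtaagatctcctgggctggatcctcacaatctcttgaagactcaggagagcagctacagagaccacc
RT1-Bb (chr20:4604069-4604368, - strand): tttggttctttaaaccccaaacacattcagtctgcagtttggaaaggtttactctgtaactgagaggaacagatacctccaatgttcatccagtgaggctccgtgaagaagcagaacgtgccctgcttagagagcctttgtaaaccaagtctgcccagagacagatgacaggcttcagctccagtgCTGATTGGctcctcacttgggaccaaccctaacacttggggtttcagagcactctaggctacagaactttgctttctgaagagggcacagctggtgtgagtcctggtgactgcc
RT1-Da (chr20:4515165-4515464, + strand): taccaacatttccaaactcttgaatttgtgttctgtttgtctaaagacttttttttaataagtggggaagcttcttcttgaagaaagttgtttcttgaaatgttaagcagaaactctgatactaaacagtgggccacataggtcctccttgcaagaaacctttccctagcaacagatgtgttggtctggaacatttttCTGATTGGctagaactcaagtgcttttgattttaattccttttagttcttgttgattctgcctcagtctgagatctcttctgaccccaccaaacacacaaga
RT1-Db2 (chr20:4541546-4541845, - strand): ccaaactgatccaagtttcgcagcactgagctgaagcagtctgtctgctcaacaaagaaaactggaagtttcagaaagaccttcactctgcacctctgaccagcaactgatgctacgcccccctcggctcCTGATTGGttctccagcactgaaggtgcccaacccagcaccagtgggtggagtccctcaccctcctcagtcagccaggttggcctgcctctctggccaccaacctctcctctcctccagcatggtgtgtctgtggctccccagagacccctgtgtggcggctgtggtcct
All 4 windows hold the Y box core in its forward direction, beginning 46 bases before the start in RT1-Ba, 64 in RT1-Bb, 52 in RT1-Da and 120 in RT1-Db2. It stood in 7 of 9 class II windows, with RT1-DMa and RT1-DOb as the others, against 3.50% of all windows. The CCAAT box GCCAATC, which overlaps it on the opposite strand, was in 5 of the 9 and in 5.83% of all windows. TGACGTCA was found in RT1-Ba alone among the 40 windows of these genes (1.83% of all windows) and TGATGTCA in RT1-DMa alone (4.34%).

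The 10 other genes were too low to be tested and differences in them are not read as changes. RT1-M6-1 was at 0.96, 0.69 and 0.84 FPKM among WKY libraries and at no more than 0.41 in the 6 SHR libraries, and RT1-M1-2 at 0.17 to 0.82 across all 9. Nlrc5, the transactivator of class I genes, lay at 0.45 to 0.94 FPKM in all libraries, with overlapping groups. RT1-M10-1, RT1-M2, RT1-M4, RT1-M5, RT1-M1-4, RT1-T18 and RT1-Ha did not exceed 0.42 FPKM in any library, and all of these but RT1-M10-1 were listed at 0 in 4 or more libraries.

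The drug was compared with no drug within the hypertensive strain. No RT1 or antigen presentation gene passed the test: 0 of 37 were called in limma, as were 0.0% of all genes tested, and log2 differences lay between -0.80 (Cd74) and 0.60 (RT1-T24-1). At an unadjusted p under 0.05 there were 2 of the 37, RT1-CE10 (log2 difference 0.36, SE 0.14, adjusted p = 0.302) and Tap2 (0.44, SE 0.19, adjusted p = 0.322), where 15.2% of all genes had one. Groups overlapped for all 37 genes, while 19.0% of all genes tested had groups that did not. The 3 raised and 6 lowered class I genes had log2 differences from untreated SHR between -0.01 (RT1-CE13) and 0.36 (RT1-CE10).

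All 7 genes of class I peptide supply and loading had higher mean log2 levels in treated than in untreated SHR, with a median log2 difference of 0.35 against 0.04 over all genes, and none was called. Over all 13127 genes, 7529 were higher and 5598 lower. Of the 19 class I genes tested, 17 were higher. With median-of-ratios scaling these counts were 6 of the 7 and 14 of the 19. Tap2 was at 13, 9.87 and 10.7 FPKM in untreated SHR and at 11.7, 15.8 and 19.8 in treated SHR. Psmb8 was at 15.6, 10.8 and 10.6 FPKM in untreated and at 11.1, 18.6 and 23.2 in treated SHR. In both genes treated libraries 2 and 3 were above every untreated library and treated library 1 was not. The direction of B2m in this comparison (0.01) turned with the scaling of the libraries. Class II genes had the opposite tendency in their means, with 7 of 9 lower in treated SHR (median log2 difference -0.37), or 6 of 9 with quantile normalization, where RT1-DOb turned. Treated library 1, which had the lowest pan-leukocyte sum of all 9, held the lowest RT1-Da, RT1-Db1, RT1-Ba and RT1-Bb. When treated library 1 was left out, 830 of 13127 genes were called (6.32%) and 0 of the 37.

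The comparison of treated SHR with WKY shares its WKY libraries with the first, so its values are given beside those and not as separate evidence. Of 37 genes, 15 were called (40.5%), 6 higher and 9 lower, where 22.9% of all genes were called, 16.8% higher and 6.09% lower. Groups did not overlap for 21 of the 37 genes (56.8%) and for 38.6% of all genes. Median-of-ratios scaling gave 5 genes of higher and 12 of lower level among them, where it called 11% of all genes higher and 9.31% lower. Quantile normalization gave 5 and 11, against 12.0% and 8.05% of all genes. All 10 genes called between untreated SHR and WKY were among the 15, with RT1-A1 at a log2 difference of 2.30 (2.17 in untreated SHR), RT1-CE2 at 3.35 (3.21), RT1-CE4 at 2.31 (2.15), RT1-CE10 at -2.27 (-2.63) and RT1-N2 at -3.20 (-3.20). The 5 others were RT1-Ba, RT1-Bb and RT1-M6-2, which were lower than in WKY, and Tapbp and RT1-M3-1, which were higher. RT1-Bb measured 10.3 ± 6.51 FPKM against 52.9 ± 13 in WKY (log2 difference -2.38, SE 0.43, adjusted p = 0.0107) and RT1-Ba 19.1 ± 9.02 against 66.5 ± 19.9 (-1.80, SE 0.42, adjusted p = 0.0210). Tapbp was at 23.5, 33.2 and 27.0 FPKM among WKY libraries and 37.1, 44.1 and 52.6 in treated SHR, with untreated SHR at 36.9, 35.3 and 39.3 (log2 difference from WKY 0.66, SE 0.15, adjusted p = 0.0190). Over all genes the median log2 difference was 0.11 as deposited and -0.01 with median-of-ratios scaling, and the call of RT1-M3-1 (0.56, adjusted p = 0.0440) was lost with that scaling. RT1-M3-1 was also not called with quantile normalization, and it kept its call in only 6 of the 18 alternative settings.

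The count of 15 fell to 8 without WKY 1, 7 without WKY 3 and 8 without treated library 2, and the share of all genes called fell from 22.9% to 6.14%, 4.52% and 8.2%. When any 1 of these was left out, Tapbp, RT1-A2, RT1-CE5, RT1-CE7, RT1-Db2, RT1-M3-1 and RT1-M6-2 lost their calls, and RT1-Ba lost its call without WKY 3 or treated library 3. RT1-A1, RT1-CE2, RT1-CE4, RT1-CE10, RT1-CE13, RT1-N2 and RT1-Bb kept theirs in all 18 alternative settings.

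Other genes of the same pathways were read from lists of their known members. Of 14 further genes of class I processing, 0 were called by limma between untreated SHR and WKY (2 at an unadjusted p under 0.05, against 19.5% of all genes) and 0 between treated and untreated SHR (0 at that p, against 15.2%), with constitutive proteasome subunits such as Psmb5 at 140 ± 2.59 FPKM in untreated SHR against 132 ± 16.8 in WKY. Against WKY, 2 of the 14 were called in treated SHR, where 22.9% of all genes were: it had more Tapbpl, a relative of tapasin that edits class I peptides (10.1 ± 1.81 against 5.37 ± 1.16 FPKM, adjusted p = 0.0193), and more of the chaperone Hspa5 (231 ± 42.5 against 166 ± 4.96, adjusted p = 0.0391). Between untreated SHR and WKY, 2.96% of all genes were called, 1.84% higher and 1.12% lower. Of 16 tested genes of class II processing and control, 1 was called there, and it fell. That was Ctsl, the protease cathepsin L, at 1109, 871 and 1097 FPKM among WKY libraries, 442, 511 and 513 in untreated SHR, and with the drug 548, 400 and 374. Its log2 difference was -1.06 (adjusted p = 0.0108) without overlap between strains. In the comparison of treated SHR with WKY, 4 of the 16 were called, a share near the 22.9% of all genes, with Ctsd, Rfxap and Cd86 higher and Ctsl lower. Rfx5 and Rfxank, which with Rfxap bind the X box of class II promoters, were not called in any comparison. Of 14 tested genes of interferon gamma signalling, 0 were called by limma in any of the 3 comparisons. Those with an unadjusted p under 0.05 were 2 between untreated SHR and WKY, 1 between treated and untreated SHR and 2 between treated SHR and WKY. The shares of all genes at that p were 19.5%, 15.2% and 40.2%. Irf1, a transcription factor induced by interferon, stood at 6.66 ± 2.68 FPKM in untreated SHR against 6.91 ± 2.45 in WKY.

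Endothelial cells also carry class I molecules. All 12 endothelial markers had higher mean log2 levels in untreated SHR than in WKY (11 with median-of-ratios scaling), as did 8417 of all 13127 genes. Of the 12, 0 were called by limma, where 2.96% of all genes were. An unadjusted p under 0.05 was found for 2 of the 12 and for 19.5% of all genes. The 12 summed to 139 to 332 FPKM in WKY, 271 to 404 in untreated SHR and 266 to 409 in treated SHR. Between treated SHR and WKY, 1 of the 12 was called, Ehd3, which was higher (log2 difference 1.25, adjusted p = 0.0127), and 4 had an unadjusted p under 0.05. In that comparison 22.9% of all genes were called, 16.8% higher and 6.09% lower, and 40.2% had an unadjusted p under 0.05. Proximal tubule markers summed to 7609 to 10020 FPKM in WKY, 7911 to 8105 in untreated SHR and 3575 to 7131 in treated SHR. Against WKY, 3 of 18 were called in treated SHR, all lower (Cubn, Slc4a4 and Slc27a2), a share below the 22.9% of all genes called in either direction, of which 6.09% were lower. The proximal tubule sums overlapped between WKY and untreated SHR and did not overlap between WKY and treated SHR. The part of tissue make-up in the class I values was not tested.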

How the data were processed

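RNA sequencing of kidney gave 1 library per sample, 3 in each of 3 groups, and groups and replicate numbers follow the sample titles. Per the labels' protocols, reads were single-end and 50 bases long. The submitters' processing notes name the aligners HISAT2 2.0.4 and Bowtie2 2.2.5 and the build Rnor_6.0. What each did, the annotation, how reads shared between copies were counted and whether strand was used is not given in the sources used here. The authors deposited FPKM, per the file headers; read totals are unknown, so no counting interval is given.

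All 3 comparisons were fitted over 9 libraries with limma 3.58.1 in R 4.3.3, in a group-means model with 6 residual degrees of freedom and an intensity trend, on log2(FPKM + 1), two-sided, for 13127 genes with FPKM of at least 1 in at least 3 libraries. The fit was tested on simulated data. Gene IDs of all 47 genes matched RefSeq's GRCr8 table, which was used for names, gene order and promoter windows. Windows were aligned with biopython 1.88, and plots drawn with matplotlib 3.10.9. Named genes are those called in any comparison, the 10 genes listed by name, all class II genes and RT1 genes with a mean of 10 FPKM or more in a group; from other lists, up to 4 called genes. The 47 genes and the lists were chosen with earlier results of these data known. Alternatives were a pseudocount of 0.1, other filters, scalings and variance priors, fits to 2 groups, a replicate block and leaving out each library.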

Additional observations from a re-analysis of the deposited data

How the results depend on the processing

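The count of RT1 and antigen presentation genes called was 10 between untreated SHR and WKY, and 8 to 11 under the other pseudocount, filters, scalings, variance priors and the fit to the 2 groups compared. The share of all genes called was 2.96%, and 1.99% to 3.87% under those settings. Leaving out 1 library gave 6 to 11 for untreated SHR against WKY, with 6 without WKY 3 or without SHR 2 (1.27% and 1.46% of all genes). For treated SHR against WKY it gave 7 (without WKY 3) to 17 (without treated library 1), where 15 were called with all libraries. The share of all genes called there was 4.52% without WKY 3, 36.5% without treated library 1 and 22.9% with all libraries. For treated against untreated SHR, leaving out 1 library gave 0 in every case. With the replicate block the counts were 7, 0 and 14, and RT1-CE5, RT1-CE7 and RT1-Db2 lost their calls in the first. The shares of all genes called with the block were 2.15%, 0.00762% and 20.6%. The titles' numbers are not said to pair the libraries by litter, batch or day. Deviations of same-numbered libraries from their group means correlated at -0.33 to 0.46 across genes. Without differently numbered libraries beside them, these values cannot show whether the numbers mark a pairing. RT1-A1, RT1-CE2, RT1-CE4, RT1-CE10, RT1-CE13 and RT1-N2 were called between untreated SHR and WKY in all 18 alternatives, and no called gene changed direction in any. The filter that asks for 1 FPKM in all 9 libraries left 30 of the 37 genes, and RT1-Db2 and RT1-M6-2 were among those taken out. FPKM without read totals gives no measure of counting error for the weakly expressed genes, and exchange of reads between class I copies is not resolved by any of these settings.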

Other observations

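Within a library, RT1-CE2 was 0.0403 to 0.0564 times RT1-CE10 in the 3 WKY libraries and 2.76 to 4.38 times in the 6 SHR libraries. RT1-Db2 was 0.0101 to 0.0158 times RT1-Db1 in WKY and 0.114 to 0.194 times in SHR, and RT1-Da was 1.33 to 1.43 times RT1-Db1 in WKY and 1.75 to 2.21 times in SHR. RT1-CE5 held 16.9% to 18.5% of the class I sum in WKY and 7.44% to 8.65% in SHR. The pairs were chosen after their values were seen, and no test was run on them.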
